A study of Mus musculus with 40 samples.

Results

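Truncated L1MdA_I copies are the rows of the table of single transposable element (TE) copies that bear the subfamily name L1MdA_I and are shorter than 5000 bp. The table listed 3799629 TE copies, of which 4683 were L1MdA_I. Of these, 3353 were under 5000 bp and were taken as members, and 1330 were 5000 bp or longer and serve below as the comparison. Over the 40 libraries, 2266 members had at least 1 read and 1087 had none. Only 288 members had at least 40 reads in all, and 68 passed the filter on low counts and entered the test.

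LINE-1 elements are retrotransposons that spread through an RNA copy of themselves. A complete mouse element has a 5′ part with an internal promoter built of short repeated units called monomers, then ORF1, which encodes an RNA-binding protein, ORF2, which encodes the endonuclease and reverse transcriptase, and a 3′ part that ends in a tail of adenines. The A-type subfamilies include some of the youngest mouse elements. Most LINE-1 copies in the genome are incomplete and have lost the promoter, and DNA and histone methylation keep the complete ones silent in most cells.

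Total RNA was sequenced from mouse embryonic stem (mES) cells in naive pluripotency and from epiblast-like cells (EpiLCs) harvested 48 h after Activin (12 ng/mL) and FGF (20 ng/mL) were added to the medium. For the wild type (WT) there were 8 libraries per stage. Cells without the lamin B receptor (LBRKO), lamin triple knockout cells without Lmna, Lmnb1 and Lmnb2 (TKO), and quadruple knockout cells in which Lbr was also disrupted in the TKO line (QKO) gave 4 libraries per stage each. The QKO cells were a single clone, the labels do not name the LBRKO clone, and each library was made from its own well, so the p-values measure the spread between wells of a line. By the study's methods the TKO line carried an extra chromosome 8 and had partly lost chromosome Y, and part of the WT cells had lost Y or carried extra copies of chromosomes 6 and 8.

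Gene counts per library ranged from 22.6 to 33.6 M in WT replicates 1 to 4, TKO and QKO, and from 39.4 to 48.9 M in WT replicates 5 to 8 and LBRKO. Depth therefore differed between mutants along with genotype, and all levels are given as counts-per-million values (CPM), scaled by the gene counts of the library. Lmna, Lmnb1 and Lmnb2 RNA was lower in TKO and QKO mES cells, whereas Lbr, disrupted by small indels, fell by less than 2-fold in LBRKO and QKO cells. All 6 naive markers were lower and all 4 primed markers were higher in WT EpiLCs than in WT mES cells. On 17497 copies of the ancient L2 and MIR repeats at least 50 kb from any gene, a level of reads with no known source in a repeat promoter, the mean was 4.21 CPM per Mb in WT, 6.62 in TKO and 13.2 in QKO mES cells, and 3.26, 2.81 and 7.80 in the EpiLCs of those genotypes. QKO libraries thus carried 3.14 times (mES) and 2.39 times (EpiLC) the WT level on these repeats; its part in the results for the members was not tested.

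The members were mostly short and, where they aligned, nearly identical to a complete element. Lengths ran from 11 to 4977 bp with a median of 990 bp. Each was placed on a reference copy of the subfamily, L1MdA_I_dup4456 (GRCm39 chr17:59883803-59890365, minus strand, 6563 bp), in which ORF1 spans positions 930 to 2003, ORF2 spans positions 2044 to 5889 and 3 monomers of 208 bp precede them. The median identity to it, over the best aligned stretch of each member, was 99.3%, and 43 members could not be placed. Bases outside that stretch do not enter the identity. Many members were not truncated insertions but pieces of longer ones. In all, 1671 members lay within 50 bp of another L1Md row, of any subfamily, on the same strand and are called joined to it. The commonest kind was a 3′ row of 990 to 995 bp, of which there were 958, 934 of them starting at position 5571 of the reference copy, near the end of ORF2. Of the 958, 920 were joined to another row and 646 belonged to a chain of 5000 bp or more. A further cut in the annotation fell at multiples of 500000 bp on the chromosome, where 42 members started or ended.

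Both kinds of border are shown because they decide what a short row means. The windows hold 30 bases on each side of the border, with the 3′ row in capitals, and those of 4 copies whose 3′ rows were higher in QKO mES cells were identical over 60 bases. They lie at chr3:91012422-91012481, chr10:50916164-50916223, chr13:90597099-90597158 and chr16:28119087-28119146, all on the plus strand. The last line is the border between L1MdA_I_dup3159 and L1MdA_I_dup3158 at chr10:15499971-15500030, minus strand, with the row that follows the border in capitals; no gap separates these rows.
L1MdA_I_dup885: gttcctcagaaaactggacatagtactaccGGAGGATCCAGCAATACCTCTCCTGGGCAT
L1MdA_I_dup3226: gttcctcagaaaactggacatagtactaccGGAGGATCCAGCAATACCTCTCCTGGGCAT
L1MdA_I_dup3766: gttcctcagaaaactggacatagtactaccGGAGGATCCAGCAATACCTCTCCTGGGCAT
L1MdA_I_dup4228: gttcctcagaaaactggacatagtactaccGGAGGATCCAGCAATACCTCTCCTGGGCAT
L1MdA_I_dup3159: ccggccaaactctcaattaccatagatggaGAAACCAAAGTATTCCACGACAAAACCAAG

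In gene space, 1057 members lay inside the span of a gene and 2296 outside. Of those inside, 615 were on the strand opposite to the gene, 417 on the same strand and 25 in genes on both strands. Only 43 overlapped an exon. Chromosome Y held 163 members, and chromosomes 6 and 8 together held 326. The kit keeps strand, but the strand setting of the counting is not given in the sources used here. Reads from a gene and from a member on the other strand therefore cannot be told apart.

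Reads on the members were concentrated on a handful of rows. Of 239173 reads, 183865 fell on 5 members, and L1MdA_I_dup666 alone took 44.1% and L1MdA_I_dup3695 took 26.8%. Summed over every member, the level was 147 ± 91.1 CPM in WT mES cells (SD, n = 8), 134 ± 88.0 in LBRKO, 223 ± 65.9 in TKO and 223 ± 67.3 in QKO (n = 4 each), and the groups overlapped. In EpiLCs it was 123 ± 30.9 in WT, 239 ± 145 in LBRKO, 136 ± 62.7 in TKO and 226 ± 63.7 in QKO. These sums follow the few heavy rows, which are described further on. The remaining 3348 members are therefore summed without those 5, with the full sums given beside them where they change the picture.

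Without the 5 heavy rows, truncated copies were higher in TKO and QKO cells at both stages. In WT mES cells their sum had a lowest value of 12.4, a median of 14.6 and a highest value of 23.4 CPM, with a mean of 15.5 ± 3.44 (SD, n = 8). In TKO mES cells it was 62.2 ± 2.48 CPM and ranged from 59.7 to 64.6, which is 4.01 times the WT mean. In QKO mES cells it was 86.9 ± 3.93 CPM and ranged from 82.4 to 91.5, or 5.61 times WT. No TKO or QKO library overlapped WT, and no QKO library overlapped TKO. In these bulk samples, a change in the number of cells that express a copy and a change in RNA per cell cannot be told apart. LBRKO mES cells had 18.1 ± 1.22 CPM, from 17.2 to 19.9. These libraries lay inside the WT range only because of WT mES replicate 7, and above the other 7 WT libraries, which ran from 12.4 to 16 CPM. The LBRKO mean was 1.17 times WT, and 1.26 times without that replicate. On the L2 and MIR repeats the LBRKO mES libraries had 4.16 to 5.57 CPM per Mb, and the part of that level in the sum was not tested.

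WT EpiLCs had a higher mean than WT mES cells with overlapping libraries, with a lowest value of 19.4, a median of 23.6 and a highest of 30.9 CPM (mean 24.2 ± 3.84, n = 8). The ratios of the mutants to WT were smaller at that stage. TKO EpiLCs had 43.2 ± 3.74 CPM, from 37.7 to 45.9, or 1.78 times WT, and QKO EpiLCs had 96.1 ± 7.5 CPM, from 88.1 to 104, or 3.97 times WT. LBRKO EpiLCs ranged from 25.7 to 48.6 CPM, with a mean 1.42 times that of WT, and overlapped both WT and TKO. The highest LBRKO EpiLC library, replicate 3, was also the highest of its group on the L2 and MIR repeats, at 5.66 CPM per Mb. WT mES replicate 7, the highest of its group at 23.4 CPM, had the highest L2 and MIR level too, 7.37 CPM per Mb. Without replicate 7 the QKO mES sum was 6.06 times WT and the TKO sum 4.33 times.

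Beside the TKO and QKO sums, the WT libraries of different depth gave similar values. WT mES replicates 1 to 4 had a mean of 13.9 CPM and replicates 5 to 8 a mean of 17.0 CPM, and the QKO mES sum was 6.24 and 5.10 times these means. For TKO mES cells the ratios were 4.46 and 3.65. In EpiLCs the QKO sum was 4.08 and 3.86 times the means of the shallower and the deeper WT libraries. The LBRKO libraries had the depth of WT replicates 5 to 8. In mES cells the LBRKO sum was 1.3 times the mean of WT replicates 1 to 4. It was 1.06 times that of replicates 5 to 8, which include replicate 7. The LBRKO ratios in EpiLCs were 1.46 and 1.39.

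The ratio to WT was smaller for truncated copies than for long ones, again with the 5 heavy rows left out. Copies of 5000 bp or more had 41.6 ± 7.54 CPM in WT mES cells, 717 ± 40 in TKO, 17.2 times WT, and 981 ± 50.2 in QKO, 23.6 times WT. In EpiLCs the ratios to WT were 4.51 in TKO and 10.7 in QKO. Per length, the 3348 rows had 4.79 CPM per Mb in WT mES cells and long copies 5.07, and in QKO mES cells 26.9 and 119. These 3348 rows made up 27% of the CPM that they and the long copies held in WT mES cells and 8.15% in QKO mES cells. The heavy rows change this picture. With every member counted, truncated copies had 45.2 CPM per Mb in WT and 69 in QKO mES cells, and their sums were 147 CPM beside 41.6 on long copies in WT and 223 beside 981 in QKO.

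**Figure D1:**
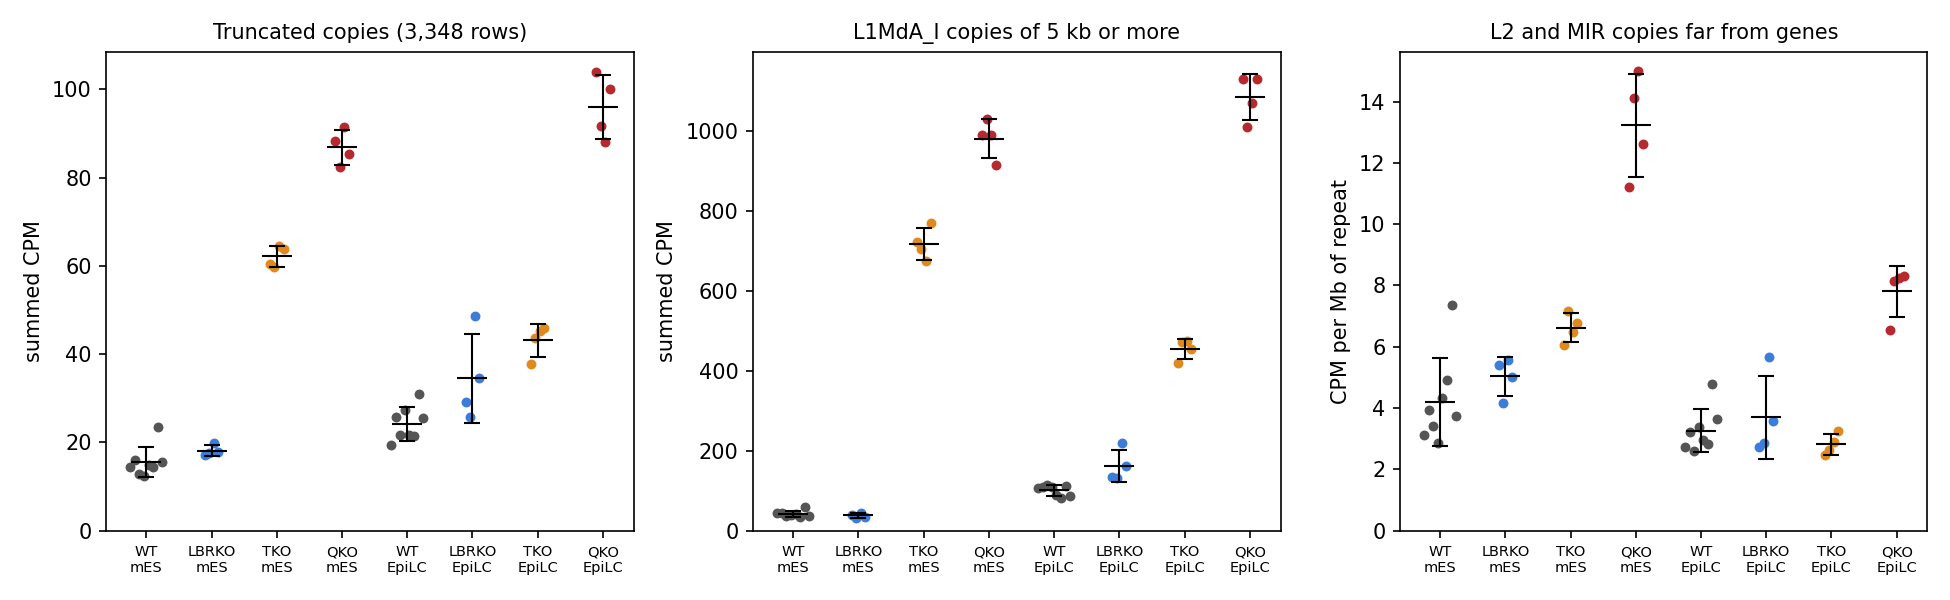
Summed CPM of the 3348 truncated copies (left), summed CPM of L1MdA_I copies of 5000 bp or more (middle) and CPM per Mb of L2 and MIR repeats far from genes (right). Each point is a library, the horizontal mark is the group mean and the bar is 1 SD. In mES cells the truncated copies lie between 12.4 and 23.4 CPM in WT and between 82.4 and 91.5 CPM in QKO, and long copies lie at 17.2 (TKO) and 23.6 (QKO) times WT.

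The ratio to WT differed by the part of the element that a truncated copy kept. Copies that hold the 5′ part, where the promoter lies, numbered 141 and had 1.36 ± 0.437 CPM in WT mES cells, 18.1 ± 0.783 in TKO and 26.1 ± 0.464 in QKO, 13.3 and 19.2 times WT. The 59 copies with ORF1 sequence but no 5′ part were 7.54 times WT in TKO and 9.34 times in QKO mES cells. The 2204 copies with ORF2 sequence but no ORF1 were 4.01 and 5.69 times WT. They included the 934 3′ rows that start at position 5571, inside ORF2, and most 3′ rows were joined to another row. The 901 copies with the 3′ part only were 1.31 and 1.68 times WT, at 5.37 ± 1.39 CPM in WT, 7.05 ± 0.972 in TKO and 9.01 ± 1.04 in QKO mES cells.

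The libraries of the 3′-only copies in TKO, from 5.78 to 8.01 CPM, lay inside the WT range of 3.66 to 8.47 CPM. In the copies with the 5′ part, the highest WT library had 2.31 CPM and the lowest TKO library 17.1 CPM. Their ratio in QKO mES cells, 19.2, was close to the 23.6 of the long copies. The QKO ratio of the 3′-only copies, 1.68, was below the 3.14 of the L2 and MIR repeats. The order of the parts was the same in EpiLCs, where QKO stood at 7.68 times WT for copies with the 5′ part, 6.18 for ORF1 without it, 3.68 for ORF2 without ORF1 and 1.91 for the 3′ part only. These ratios are descriptions of sums and were not tested.

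Members with monomers, the units of the promoter, had higher ratios than members without, but in QKO mES cells the ratio did not follow the number of monomers. The 3243 members with no monomer were 3.16 times WT in TKO and 4.37 times in QKO mES cells. The 54 members with 3 or more monomers were 14.1 and 18.8 times WT. The 51 members with 1 or 2 monomers were 9.78 and 23.4 times WT.

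Length alone did not order the copies in the same way. The ratio of QKO to WT mES cells was 10.5 for members of 3000 to under 5000 bp, 18.3 for 2000 to under 3000 bp, 7.16 for 1000 to under 2000 bp, 5.08 for 500 to under 1000 bp and 2.12 for members under 500 bp. The shortest class was also the densest in WT mES cells, at 21.0 CPM per Mb against 2.31 for the class of 2000 to under 3000 bp. Most of the level of the shortest class, 4.12 of 5.09 CPM, came from rows inside gene spans.

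**Figure D2:**
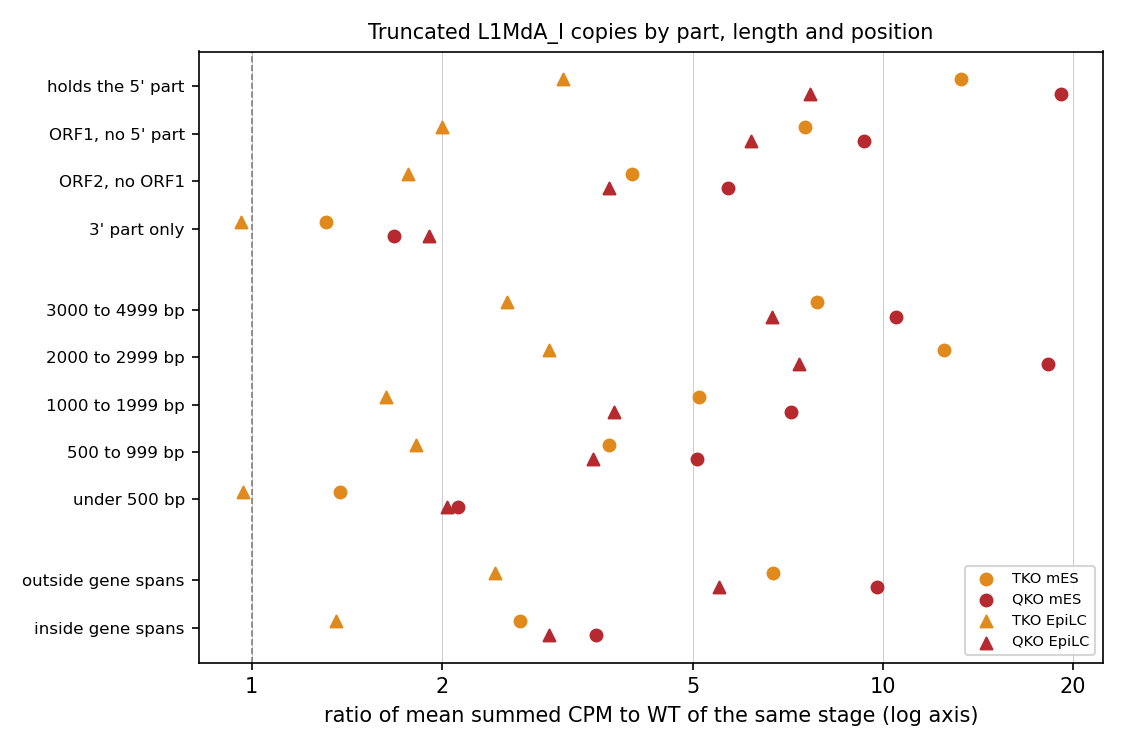
Ratio of the mean summed CPM of truncated copies to WT of the same stage, on a log axis, by part of the element, by length and by position relative to gene spans, without the 5 members with most reads. Circles are mES cells, triangles EpiLCs, orange TKO and red QKO. Copies with the 5′ part lie at 13.3 (TKO) and 19.2 (QKO) in mES cells, and copies with the 3′ part only at 1.31 and 1.68.

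Position relative to genes split the copies as well. Outside gene spans, members had 5.17 ± 1.55 CPM in WT mES cells, 34.7 ± 0.333 in TKO and 50.7 ± 3.16 in QKO, 6.70 and 9.79 times WT. Inside gene spans the levels were 10.3 ± 1.95, 27.5 ± 2.48 and 36.2 ± 2.04 CPM, 2.66 and 3.51 times WT. With the 5 heavy rows counted, the ratio in QKO mES cells was 1.51 inside and 1.54 outside, because L1MdA_I_dup666 lies outside and L1MdA_I_dup3695 inside. Copies on the opposite strand to the gene were 4.09 times WT in QKO mES cells and copies on the same strand 2.86 times.

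The split was wider where only genes with RNA were considered. The 535 members inside the span of a gene with at least 1 CPM held 9.07 CPM in WT mES cells and were 1.61 times WT in TKO and 2.15 times in QKO. The 2813 members outside such spans held 6.41 CPM and were 7.41 and 10.5 times WT. Per length this was 21.2 CPM per Mb inside and 2.29 outside in WT mES cells, and 45.5 and 24.0 in QKO.

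The difference by position was smallest for copies with the 3′ part only and for those with the 5′ part. Copies with the 5′ part were 16.2 times WT inside gene spans and 21.3 times outside in QKO mES cells. Copies with ORF2 sequence but no ORF1 were 3.32 times WT inside and 9.68 times outside. Copies with the 3′ part only were 1.62 and 1.92 times WT. The 42 exonic members left after removal of the heavy rows were 1.46 times WT in QKO mES cells.

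Rows joined into a long chain differed from rows that stand alone. A chain can hold rows of other L1Md subfamilies, as that of L1MdA_I_dup1066 does, and is not always a single insertion. Rows that stand alone include pieces of a split insertion, such as L1MdA_I_dup3400 and L1MdA_I_dup3399, described below. Members joined to a chain of 5000 bp or more were 9.41 times WT in TKO and 14.2 times in QKO mES cells, against 2.36 and 3.01 times for members that stand alone. The gap remained within one part: ORF2 rows without ORF1 were 11.0 times WT in QKO mES cells when joined to such a chain and 2.83 times when alone. For rows with the 5′ part the values were 38.3 and 10.9. The L2 and MIR repeats were 1.57 times WT in TKO and 3.14 times in QKO mES cells, and their part in these ratios was not tested. Members on chromosome Y were 12.1 times WT in QKO mES cells from a level of 0.0857 CPM, and those on chromosomes 6 and 8 were 5.11 times WT, beside 5.63 for all other chromosomes. The karyotypes of the lines differ for these 3 chromosomes, and their part in these values was not tested.

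The test was edgeR's quasi-likelihood test, fitted to 131824 TE copies, with Benjamini-Hochberg adjustment over all of them and a call at an adjusted p under 0.05 and a fold over 2. Members with few reads in WT passed the filter through the groups in which they are high, so the counts below describe the 68 tested rows and do not extend to the other members. In TKO mES cells 47 of 68 members were called higher than WT, where 3.48% of all TE copies tested were, and 33 rose over 10-fold, against 0.924%. In QKO mES cells 50 were higher, against 24.2% of all copies, and 40 rose over 10-fold, against 1.95%. The median log2 fold change of the 68 members was 3.30 in TKO and 3.75 in QKO mES cells, where the medians of all copies were 0.23 and 0.77 and those of 685 long L1MdA_I copies were 3.70 and 4.34. The libraries of 45 members in QKO and 38 in TKO lay wholly above WT, 66.2% and 55.9% of those tested, beside 12.8% and 3.43% of all copies.

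Many of the largest changes started from almost nothing. Of the 40 members over 10-fold in QKO mES cells, 15 had 3 or fewer reads over the 8 WT libraries and 6 had none. With the members that had no WT read set to a floor of 3 reads per group, the medians and the 10-fold counts were the same. By part, 23 of 24 tested members with the 5′ part were higher in QKO mES cells, with a median log2 fold change of 4.15. Of the members with ORF2 sequence but no ORF1, 21 of 28 were higher (median 4.04), and of those with the 3′ part only, 2 of 11 (median 0.58). With 3 or more monomers 19 of 20 were higher, and with none 26 of 40. Outside gene spans 31 of 36 were higher and inside 19 of 32. Of members that stand alone, 20 of 35 were higher (median 2.04), and of those joined to a chain of 5000 bp or more, 25 of 27 (median 4.34). Against TKO mES cells, 1 member, L1MdA_I_dup3134, was called higher in QKO, 1.47% of those tested and near the 1.29% of all copies. At an unadjusted p under 0.05 with a fold over 2 there were 4. In the sums without the heavy rows, by contrast, no QKO mES library overlapped TKO. No member was lower in QKO than in TKO mES cells by either criterion or by DESeq2 (0.124% of all copies).

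In EpiLCs 25 members were higher in TKO than in WT, against 2.07% of all copies, and 5 rose over 10-fold (0.408%). The 25 became 14 without TKO EpiLC replicate 3 and 11 with WT replicates 1 to 4 alone. In QKO EpiLCs 55 were higher, against 29.3%, and 22 rose over 10-fold (2.44%). The median log2 fold change was 1.39 in TKO and 2.71 in QKO EpiLCs, with 0.05 and 0.81 over all copies. Of the 50 members higher in QKO mES cells, 48 were also higher in QKO EpiLCs, or 96.0% of the former and 87.3% of the latter. The 25 members higher in TKO EpiLCs were all among the 47 higher in TKO mES cells. The same overlaps over all TE copies are not given here, so these shares cannot be read as particular to the members. QKO EpiLCs exceeded TKO EpiLCs at 15 members, against 12.6% of all copies, and the median difference was 1.17 on the log2 scale, against 0.72. With TMM factors computed on the TE copies in place of genes, the 15 became 3. None was lower (0.552%), nor at an unadjusted p under 0.05 or by DESeq2.

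The loss of LBR alone changed few members. In LBRKO mES cells none was called higher (0.409% of all copies) and 2 had an unadjusted p under 0.05 with a fold over 2, whereas 2 members were called lower (0.457%) and 5 passed unadjusted. DESeq2 called none higher and 3 lower. In LBRKO EpiLCs 1 member was higher, L1MdA_I_dup3400, against 1.21% of all copies, and 9 passed unadjusted. None was called lower there by edgeR or DESeq2 (0.287%), and 1 passed unadjusted. The 2 members lower in LBRKO mES cells, named because they were so few, were L1MdA_I_dup3158 and L1MdA_I_dup3557, a 4286-bp piece with the 5′ part at chr12:60513205-60517490. Neither had a read in any of the 4 LBRKO libraries. In WT they had 16 and 18 reads over 8 libraries. With a floor of 3 reads over the LBRKO libraries they were 3.22-fold and 3.63-fold lower, without allowance for counting error in the WT reads. The edgeR adjusted p was 0.0385 and 0.0373, neither call remained when any 1 of the LBRKO mES libraries or WT mES replicate 8 was left out, and 1 remained without WT mES replicate 2, 3 or 7.

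Some members also differed between stages in WT cells. Of the 68, 18 were higher in WT EpiLCs than in WT mES cells, against 11% of all copies, 3 of them over 10-fold (1.28%), and none was lower (10%), nor at an unadjusted p under 0.05 or by DESeq2. Fitted on WT replicates 1 to 4 the 18 became 10, fitted on 5 to 8 they became 7, and with no filter on low counts, over 2266 members, 73 were higher and 17 lower. The median log2 difference was 0.97, against 0.18 over all copies. The mutant effect was smaller in EpiLCs than in mES cells at 5 members for TKO (0.152% of all copies) and at 6 for QKO (0.589%) by the test of the difference between stages. The 6 became 2 without WT mES replicate 6, WT EpiLC replicate 4 or QKO EpiLC replicate 3, and 3 without WT mES replicate 2 or 5. With WT replicates 5 to 8 alone, the counts were 2 for TKO and 0 for QKO. No member had a larger effect in EpiLCs by edgeR or DESeq2, where 0.0288% (TKO) and 1.42% (QKO) of all copies did, and at an unadjusted p under 0.05 there were none for TKO and 1 for QKO. Since the WT groups enter both effects, a higher WT level in EpiLCs enters these differences.

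Among pieces that hold the 5′ part, L1MdA_I_dup3400 had the most reads, 2627 over all libraries. It is a 4061-bp row with 6 monomers at chr11:46391707-46395767, minus strand, outside gene spans and 19271 bp from Timd5. In WT mES cells it ranged from 0 to 0.327 CPM. It had 7.43, 3.00, 5.21 and 4.05 CPM in the 4 TKO mES libraries and 9.19, 4.10, 5.10 and 5.66 CPM in the 4 QKO libraries. Every TKO and QKO library was far above every WT library, and TKO and QKO overlapped. The log2 fold change was 5.73 ± 0.34 in TKO (edgeR, adjusted p = 6.7e-25) and 6.02 ± 0.34 in QKO (adjusted p = 1.24e-26). For log2 values here and below, ± is a standard error derived from the test statistic and not an SD over libraries. In EpiLCs it reached 6.55, 5.72, 6.51 and 7.56 CPM in QKO and 4.32, 3.09, 3.52 and 1.91 in TKO, and QKO was higher than TKO by 1.04 ± 0.31 on the log2 scale (adjusted p = 0.0175). In LBRKO EpiLCs the values were 0.272, 1.17, 0.292 and 0.447 CPM beside a WT range of 0.0449 to 0.346, a log2 fold change of 1.73 ± 0.37 (adjusted p = 0.00217), with replicates 1 and 3 inside the WT range.

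The remainder of that insertion was higher in both mutants as well. L1MdA_I_dup3400 ends at position 3437 of the reference copy and L1MdA_I_dup3399, a 3131-bp row at chr11:46383558-46386688, starts at position 3433 and holds the rest. Between them lies an element of 5018 bp at chr11:46386689-46391706 that the table lists as 5 rows of MT2_Mm and MERVL-int, an endogenous retrovirus. The ends that face it share the 5 bases in capitals (chr11:46391707-46391726 and chr11:46386669-46386688, minus strand), as a duplicated insertion site would; this was noticed after the values were seen.
L1MdA_I_dup3400: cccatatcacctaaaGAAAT
L1MdA_I_dup3399: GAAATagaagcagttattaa
L1MdA_I_dup3399 had 0.682, 0.995, 0.471 and 0.720 CPM in QKO mES cells and from 0 to 0.0452 CPM in WT, a log2 fold change of 5.40 ± 0.64. No QKO library overlapped WT. The element between the pieces had 26 reads over all 40 libraries, none of them in TKO mES cells and a mean of 0.0650 CPM in QKO mES cells.

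**Figure D3:**
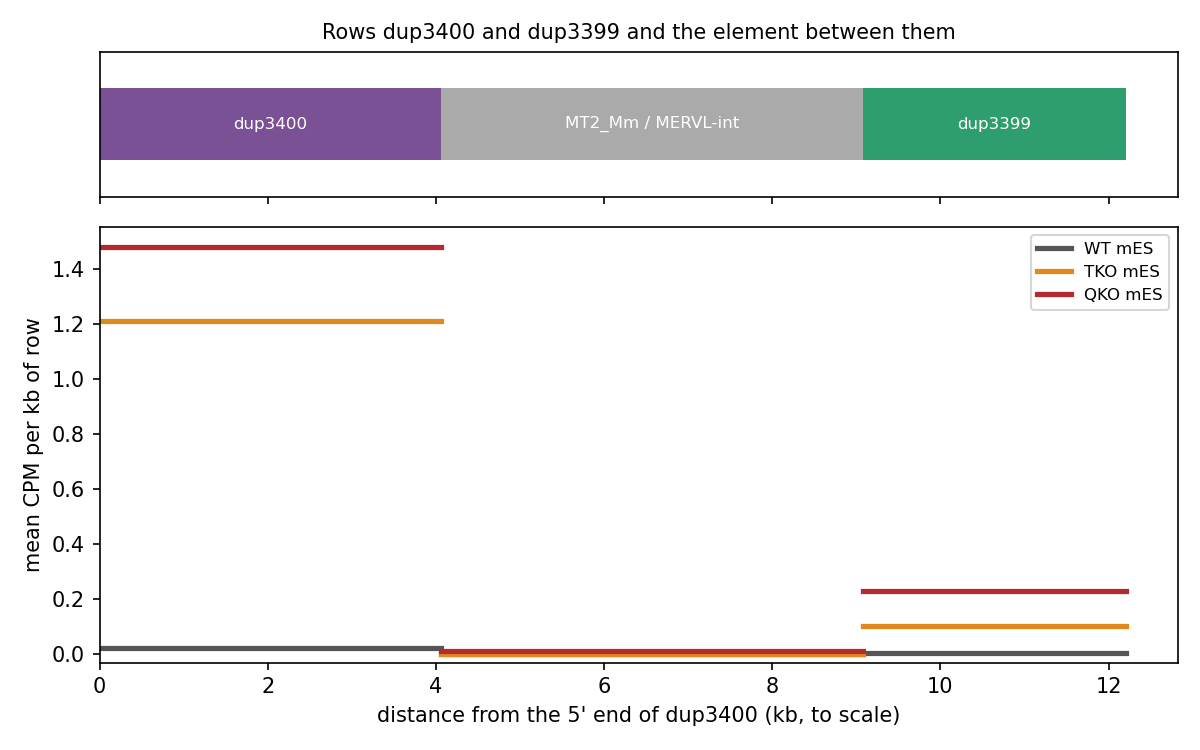
Top, the rows L1MdA_I_dup3400 and L1MdA_I_dup3399 and the MERVL element between them, drawn to scale by distance in kb from the 5′ end of L1MdA_I_dup3400. Bottom, mean CPM per kb of each in WT, TKO and QKO mES cells (n = 8, 4 and 4). The 5′ piece is the highest, the 3′ piece is lower and the element between them is near 0 in all 3 groups.

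L1MdA_I_dup550 and L1MdA_I_dup1066 are shorter promoter pieces outside genes. L1MdA_I_dup550, 2343 bp with 3 monomers at chr2:100003606-100005948, minus strand, had 1 read in the 8 WT mES libraries. It had 0.594, 0.714, 0.972 and 0.840 CPM in TKO and 1.04, 0.919, 0.785 and 1.44 CPM in QKO mES cells. Pooled over libraries, the level in QKO was 311 times that in WT, with a 95% counting interval of 54.7 to 12400, since 118 reads are set against 1. In EpiLCs it separated QKO (1.01, 0.447, 0.818 and 1.12 CPM) from TKO (0.0441, 0.177, 0.344 and 0.121 CPM), by 2.28 ± 0.52 on the log2 scale (edgeR, adjusted p = 0.00159).

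L1MdA_I_dup1066, 2991 bp at chr4:21381349-21384339, plus strand, has 11 monomers in front of a piece of ORF1. It had 0.825, 1.28, 2.30 and 1.13 CPM in TKO and 1.98, 1.57, 1.14 and 1.61 CPM in QKO mES cells, whereas WT mES cells had at most 0.0362 CPM. The log2 fold changes were 6.34 ± 0.45 and 6.53 ± 0.45 (edgeR, adjusted p = 2.06e-20 and 1.44e-21). WT EpiLCs had 0.0646 to 0.234 CPM, above every WT mES library, and the TKO effect was smaller in EpiLCs by 3.63 ± 0.65 on the log2 scale (adjusted p = 0.000715). The QKO effect was smaller by 2.51 ± 0.65 (adjusted p = 0.0154).

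L1MdA_I_dup3585 and L1MdA_I_dup101 are further pieces outside genes that hold the 5′ part, 3067 bp at chr12:67996934-68000000 and 3143 bp at chr1:44527823-44530965. They were named for QKO EpiLCs, where L1MdA_I_dup3585 had 0.827, 1.92, 1.31 and 0.868 CPM and L1MdA_I_dup101 had 0.720, 0.543, 1.44 and 0.392 CPM. The highest WT EpiLC library had 0.124 and 0.130 CPM. The log2 fold changes were 4.46 ± 0.51 and 4.15 ± 0.67 (edgeR, adjusted p = 1.88e-11 and 8.09e-07). L1MdA_I_dup3585 ends at a multiple of 500000 bp, and the next piece of the same element, the 2919-bp L1MdA_I_dup3586, had 37 reads in all libraries beside its 441. L1MdA_I_dup738, a 3382-bp piece at chr3:32677303-32680684, 6568 bp from Gnb4, had 2.18, 1.53, 1.65 and 1.61 CPM in QKO mES cells. WT mES cells had 0.0297 to 0.253 CPM, so the groups did not overlap, and the log2 fold change was 3.74.

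Some promoter pieces lie inside genes. L1MdA_I_dup3159 (chr10:15500001-15502691, 2691 bp, 7 monomers) and L1MdA_I_dup3158 (chr10:15495309-15500000, 4692 bp) are pieces of 1 element in the predicted gene Gm47712, on the opposite strand, cut by the annotation at chr10:15500000 as printed above. L1MdA_I_dup3159 had 2.71, 2.35, 3.56 and 2.26 CPM in TKO and 4.64, 4.48, 2.98 and 2.09 CPM in QKO mES cells, with at most 0.177 CPM in WT. Its log2 fold change was 5.21 ± 0.35 in TKO and 5.59 ± 0.34 in QKO (edgeR, adjusted p = 3.12e-22 and 1.52e-24). The downstream piece L1MdA_I_dup3158 rose by 4.89 and 4.96 on the log2 scale. Gm47712 in the gene table rose by 4.92 ± 0.88 and 5.48 ± 0.83, and the reads of the gene and of the element cannot be told apart without strand. For both pieces the TKO effect was smaller in EpiLCs, by 3.15 ± 0.50 and 2.84 ± 0.61 on the log2 scale (edgeR, adjusted p = 6.55e-05 and 0.0135).

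L1MdA_I_dup2155 lies on the same strand in the predicted gene Gm45459, which was too low in the gene table to test. It is 4837 bp long, at chr8:63103711-63108547, and had 0.617, 0.574, 0.510 and 0.617 CPM in QKO mES cells with at most 0.0362 in WT, a log2 fold change of 5.08 ± 0.59. L1MdA_I_dup4504, a 1555-bp promoter piece in Chst9, which encodes a sulfotransferase, had at most 0.152 CPM in WT mES cells and 1.22, 0.785, 0.913 and 1.39 CPM in TKO. Its TKO effect was smaller in EpiLCs by 2.74 on the log2 scale (edgeR, adjusted p = 0.0146). L1MdA_I_dup3836, 3721 bp in Gm3411, had 1 read in WT mES cells and 26 in QKO mES cells, and its QKO effect was smaller in EpiLCs by 3.67 ± 1.02 on the log2 scale (adjusted p = 0.0294). The gene Gm3411 itself moved the other way in QKO mES cells, by -3.44 ± 1.32 (adjusted p = 0.0317).

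The 3′ rows could be compared with the body rows of their own insertions. Of the 3′ rows, 575 directly followed an L1MdA_I row of 5000 bp or more. In WT mES cells these 3′ rows had 2.38 ± 0.843 CPM per Mb and the bodies 4.63 ± 0.983. In TKO the 3′ rows had 18.4 ± 1.16 and the bodies 69.9 ± 2.60 CPM per Mb, 7.73 and 15.1 times WT. In QKO mES cells the values were 27.1 ± 3.24 and 101 ± 5.06, or 11.4 and 21.9 times WT. In QKO EpiLCs the 3′ rows were 4.99 times WT and the bodies 10.3 times. The 3′ ends of these insertions were thus higher than WT together with their bodies in both mutants and at both stages, by a smaller factor. Uniquely mapped reads alone were counted, and the share of each row to which a read can map uniquely was not measured.

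**Figure D4:**
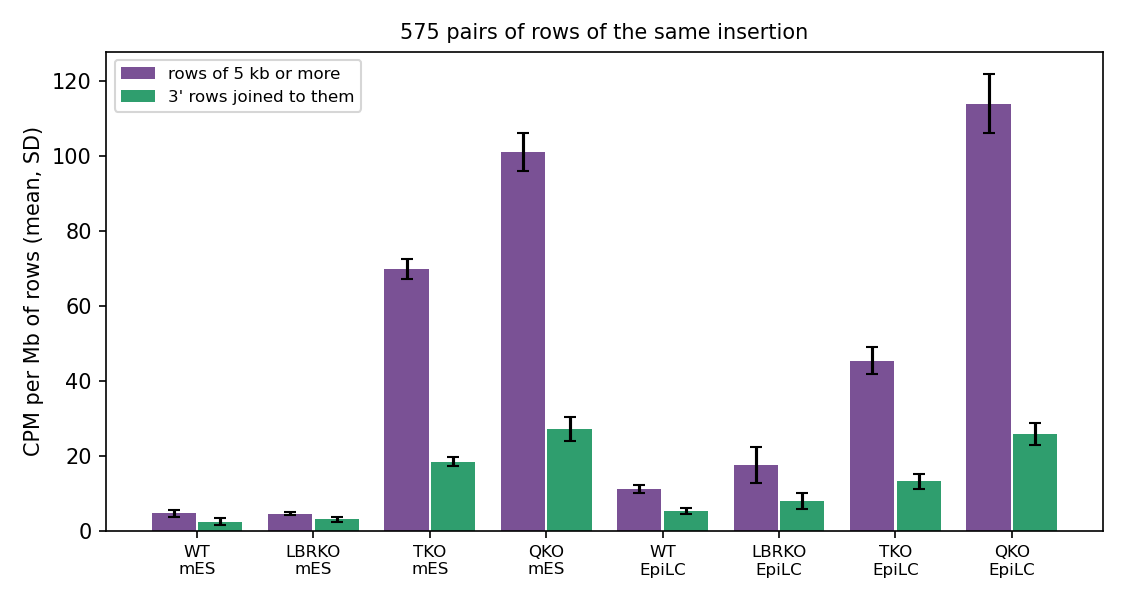
Mean CPM per Mb of 575 L1MdA_I rows of 5000 bp or more and of the 3′ rows of 990 to 995 bp that follow them in the same insertion; bars are group means and error bars 1 SD over libraries (n = 8 for WT, 4 otherwise). In QKO mES cells the bodies reach 101 CPM per Mb and the 3′ rows 27.1.

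L1MdA_I_dup885, at chr3:91012452-91013443 behind the 10144-bp body L1MdA_I_dup884, was the member with the largest fitted change in TKO mES cells. In WT mES cells 7 of 8 libraries had no read and replicate 7 had 0.0254 CPM. TKO mES cells had 0.627, 1.03, 1.06 and 0.840 CPM and QKO mES cells 0.844, 0.651, 1.10 and 0.617, which overlap each other but not WT. The log2 fold change was 7.01 ± 0.64 in TKO (edgeR, adjusted p = 6.07e-15), and the pooled level was 263 times that in WT, with a 95% counting interval of 46.2 to 10500. Its body went from 0.193 ± 0.104 CPM in WT to 18.0 ± 0.816 in TKO and 19.3 ± 1.68 in QKO mES cells, log2 fold changes of 6.55 ± 0.23 and 6.65 ± 0.23.

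L1MdA_I_dup4228 is a 3′ row of 993 bp at chr16:28119117-28120109, on the opposite strand in Fgf12, a fibroblast growth factor homologue. It had 0 to 0.152 CPM in WT mES cells, 1.09, 1.21, 1.15 and 1.46 CPM in TKO and 1.53, 1.57, 1.77 and 1.34 CPM in QKO. The log2 fold changes were 3.86 and 4.19, and those of its 7442-bp body L1MdA_I_dup4227 were 3.83 ± 0.19 and 4.27 ± 0.19. Fgf12 was too low in the gene table to test. The TKO effect on this row was smaller in EpiLCs by 2.64 ± 0.53 on the log2 scale (edgeR, adjusted p = 0.00522), and that on its body by 2.13 ± 0.27, a difference in the same direction.

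L1MdA_I_dup3226 (chr10:50916194-50917186) and L1MdA_I_dup3766 (chr13:90597129-90598121) are 3′ rows outside genes with lower levels. L1MdA_I_dup3226 had 0.844, 0.459, 0.432 and 0.343 CPM in QKO mES cells and 1 WT read, and the pooled level was 155 times that in WT (95% counting interval 26.8 to 6240). L1MdA_I_dup3766 separated the lines in EpiLCs. It had 0.720, 0.735, 0.458 and 0.504 CPM in QKO EpiLCs, and no TKO library exceeded 0.153 CPM, a log2 difference of 2.31 ± 0.66 (edgeR, adjusted p = 0.0118). L1MdA_I_dup2800 is a body row of 4185 bp in Pcdh11x on chromosome X, a protocadherin gene, whose 3′ row of 993 bp, L1MdA_I_dup2801, is a member too and had 4 reads in all. It had 0.720, 0.639, 0.425 and 0.336 CPM in QKO EpiLCs and at most 0.0764 CPM in TKO, a log2 difference of 2.99 ± 0.68 (edgeR, adjusted p = 0.00137), while Pcdh11x RNA was lower in QKO EpiLCs than in WT by 2.23 ± 0.61 on the log2 scale.

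L1MdA_I_dup3134 was the member that best separated QKO from TKO. It is a 110-bp row on the minus strand at chrY:90809984-90810093, inside Erdr1y and opposite to it. Its sequence is shown because only the 89 bases in capitals aligned to the reference copy, in ORF2, at 97.75% identity.
L1MdA_I_dup3134: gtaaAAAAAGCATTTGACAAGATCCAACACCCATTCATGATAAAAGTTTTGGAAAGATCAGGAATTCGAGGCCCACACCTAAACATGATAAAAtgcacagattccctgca
In WT mES cells it ranged from 0.121 to 0.38 CPM. TKO mES cells had 5.94, 5.99, 5.33 and 5.77 CPM and QKO mES cells 14.2, 15.2, 21.9 and 16. WT, TKO and QKO formed 3 ranges without overlap. The log2 fold change was 4.62 ± 0.24 in TKO and 6.16 ± 0.24 in QKO (edgeR, adjusted p = 9.26e-29 and 1.17e-37), and QKO exceeded TKO by 1.55 ± 0.24 (adjusted p = 4.74e-06).

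In EpiLCs L1MdA_I_dup3134 kept that order, with 6.22, 7.52, 5.05 and 5.96 CPM in TKO and 30.3, 25.5, 22.0 and 22.3 CPM in QKO, and WT at or below 0.581 CPM. Its host gene Erdr1y rose less, by 0.92 ± 0.15 on the log2 scale in TKO and 1.5 ± 0.14 in QKO mES cells, and by 1.24 ± 0.14 and 1.6 ± 0.14 in EpiLCs. LBRKO libraries had 0.0639 to 0.3 CPM of this member in mES cells, inside the WT range but for the lowest. The lines differ in how many cells kept chromosome Y, and near-identical copies of Erdr1 exist, so the origin of these reads is uncertain.

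L1MdA_I_dup666 and L1MdA_I_dup3695, the rows that carry most of the reads, did not follow genotype. Of the other heavy rows, L1MdA_I_dup3134 and L1MdA_I_dup3400 were higher in TKO and QKO cells, as given above. The sums without the 5 heavy rows leave these out too. L1MdA_I_dup666, a 1714-bp piece of ORF2 at chr3:5925884-5927597 outside genes, had a lowest value of 3.30 and a highest value of 227 CPM in WT mES cells. The 4 QKO mES libraries had 83.3, 61.5, 2.08 and 110 CPM. Its log2 fold change in QKO was -0.19 ± 0.56 (edgeR, adjusted p = 0.815), and it passed the threshold in no comparison. Its 993-bp 3′ neighbour L1MdA_I_dup667 had 32 reads in all, against 105421. L1MdA_I_dup3695, 264 bp on the same strand in Jarid2, a subunit of Polycomb repressive complex 2, lies at chr13:45022787-45023050. It ranged from 7.68 to 97.4 CPM in WT mES cells and had a log2 fold change of -0.27 ± 0.38 in QKO. L1MdA_I_dup3695 passed the threshold in no comparison, and its spread within groups was wide. Group means still differed, with 74.4 ± 45.4 CPM in LBRKO EpiLCs and 36 ± 21.5 in WT EpiLCs. Jarid2 RNA itself varied little between groups (0.41 ± 0.05 in QKO mES cells).

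L1MdA_I_dup51 (308 bp, chr1:24650311-24650618) and L1MdA_I_dup52 (619 bp, chr1:24655266-24655884) overlap exons of the predicted genes Gm28439 and Gm29216 only at an end. Gm28439 spans chr1:24650616-24651491 and Gm29216 spans chr1:24654787-24655278. The share of reads counted for both row and gene was not measured. L1MdA_I_dup51 had a range of 1.39 to 5.26 CPM in WT mES cells and 9.03, 4.44, 2.49 and 4.62 CPM in QKO EpiLCs, replicate 3 of which lay inside the WT EpiLC range of 0.940 to 4.20 CPM, where its log2 fold change was 1.04 ± 0.31 (edgeR, adjusted p = 0.00757) and that of Gm28439 was 1.33 ± 0.38. L1MdA_I_dup52 overlapped WT in QKO mES cells, with 2.01, 0.727, 1.65 and 2.95 CPM. L1MdA_I_dup1533, a 179-bp row in Sppl3, a signal peptide peptidase gene, had a small change, of 1.12 ± 0.41 in QKO mES cells (adjusted p = 0.0337). Its 4 QKO libraries, from 0.383 to 0.942 CPM, were all above the highest WT library, 0.374 CPM. Only a short stretch of this row aligned to the reference copy, at positions 5205 to 5237 with 84.85% identity.

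**Figure D5:**
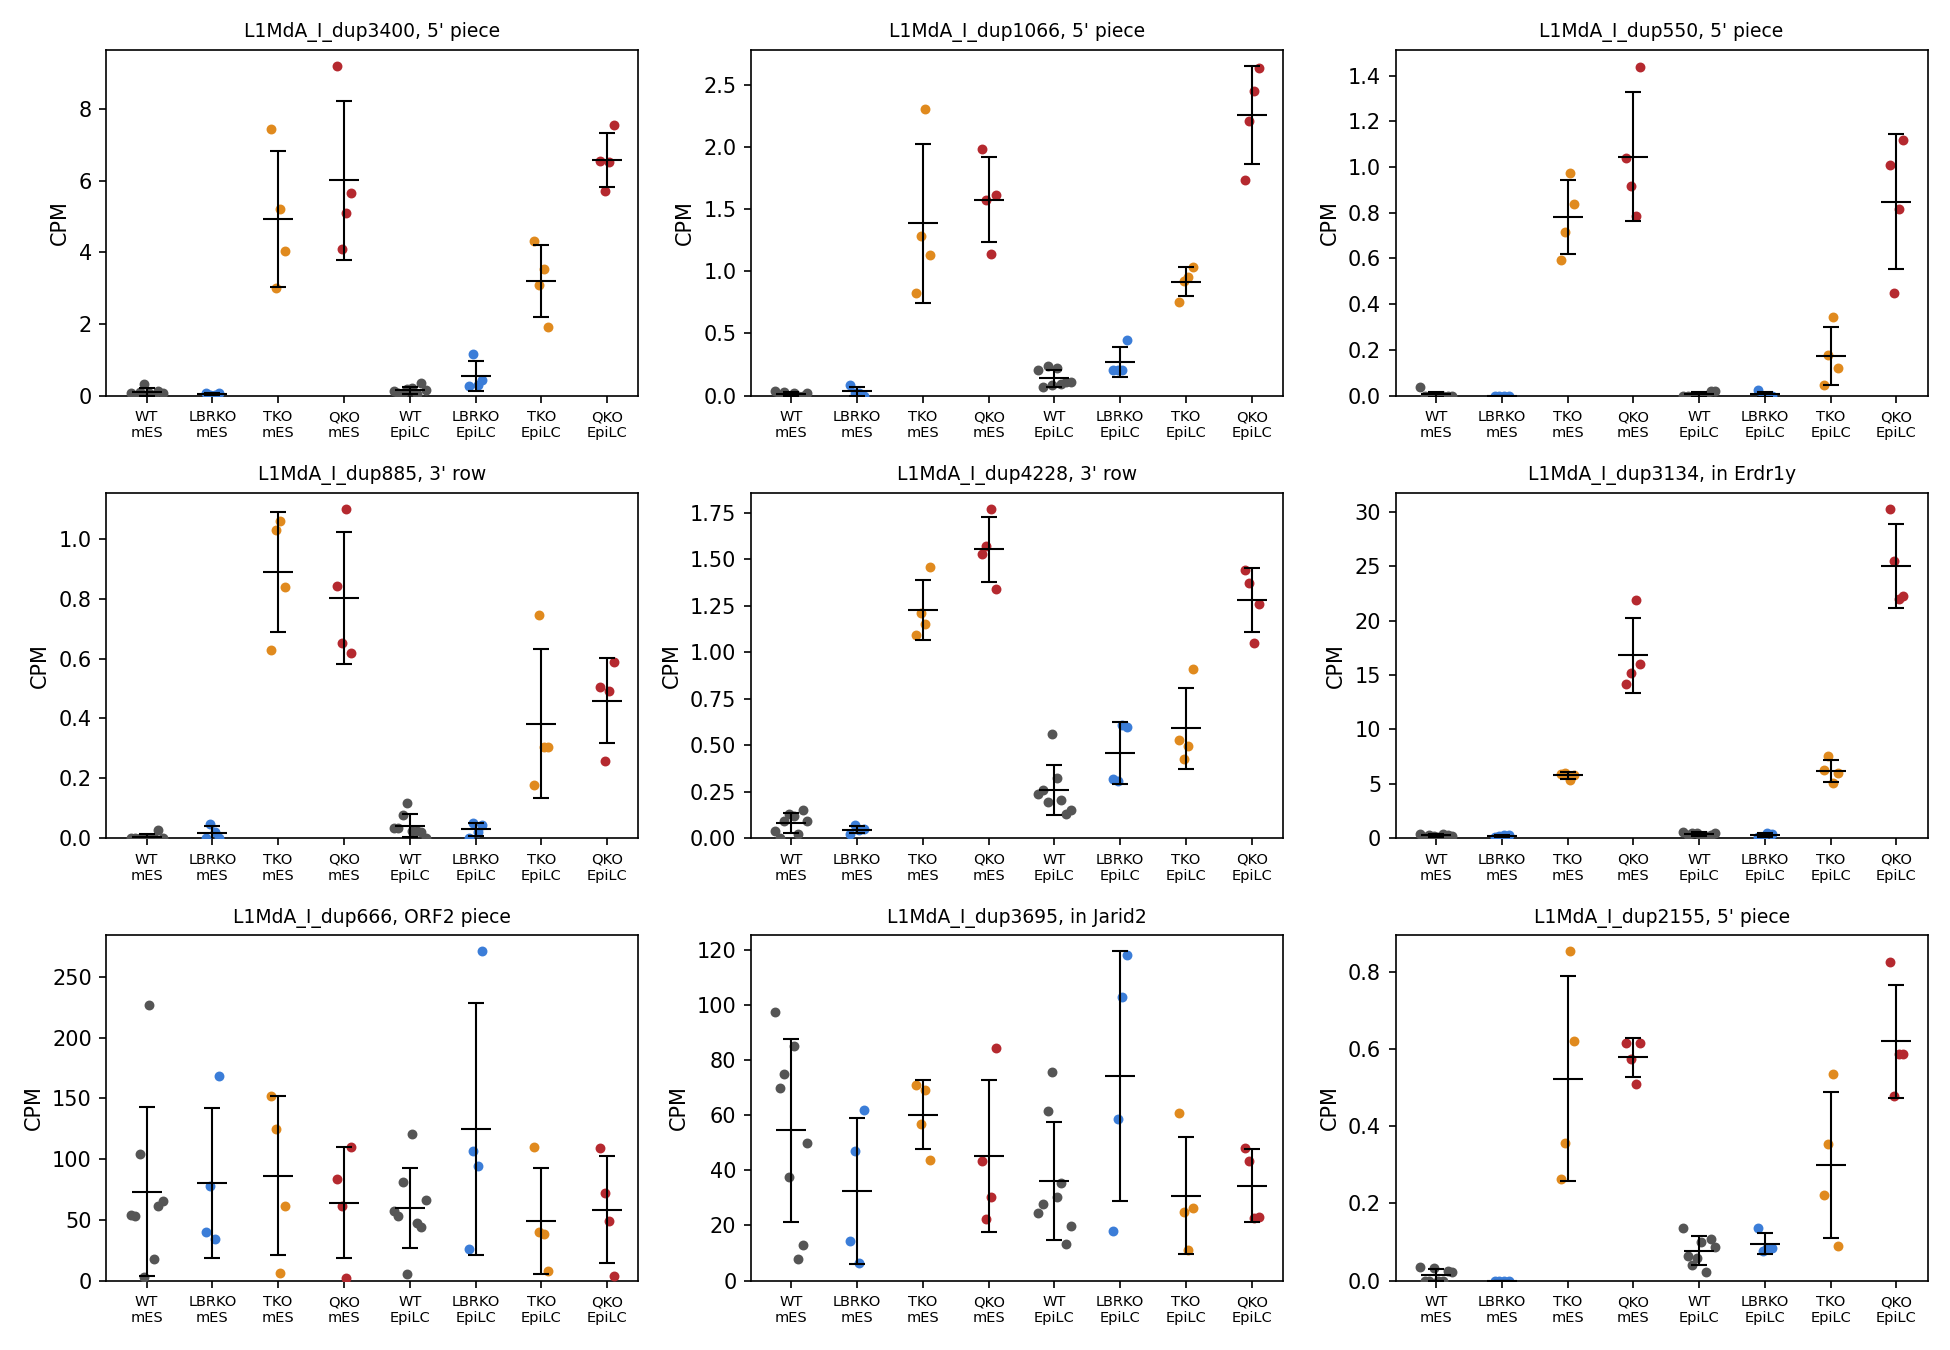
CPM of 9 named truncated copies in the 8 groups. Each point is a library, the horizontal mark the group mean and the bar 1 SD; every panel has its own linear axis from 0. L1MdA_I_dup3400, L1MdA_I_dup1066, L1MdA_I_dup550, L1MdA_I_dup885 and L1MdA_I_dup3134 are near 0 in WT mES cells and high in TKO and QKO, whereas L1MdA_I_dup666 and L1MdA_I_dup3695 spread widely within every group.

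Of the 68 members, 1 was called lower in TKO and in QKO cells, and it was the same row at both stages. L1MdA_I_dup2087, outside the rule for named copies and described because it stood alone, is a 380-bp 3′ piece at chr8:31647701-31648080 in Tti2, on the opposite strand. WT mES cells had 0.0623 to 0.964 CPM. In TKO mES cells 2 libraries had no read and the others 0.0714 and 0.0365 CPM, and in QKO 3 had none and replicate 1 had 0.0325 CPM. The log2 fold change was -3.97 in TKO and -5.18 in QKO mES cells (edgeR, adjusted p = 0.000415 and 2.66e-05), where 0.689% and 1.36% of all copies were lower. In EpiLCs the background was 0.557% for TKO and 1.4% for QKO. By reads, WT was 18.6 times TKO (95% counting interval 6.23 to 91.3) and 52.0 times QKO (9.18 to 2070). TKO EpiLCs had no read in 4 libraries against 78 reads in WT EpiLCs, 9.64-fold lower with a floor of 3 reads, and QKO EpiLCs had reads in 1 of 4 libraries. Tti2 RNA changed by -0.12 and -0.20 on the log2 scale. QKO cells derive from the TKO line and share its genome, and the presence of the copy in that line was not tested.

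At the length threshold, rows on either side ranged from 3 to 468 reads over all libraries. Just under it, L1MdA_I_dup1767 (4970 bp) had 100 reads and L1MdA_I_dup3969 (4977 bp) had 36, and both continue in a 3′ row of 993 bp. Just over it, L1MdA_I_dup4359 (5008 bp) had 3 reads and L1MdA_I_dup139 (5009 bp) had 468. L1MdA_I_dup1767 had no read in WT mES cells and 0.552, 0.268, 0.275 and 0.343 CPM in QKO. L1MdA_I_dup3969 had 1 read in WT mES cells and 0.0325, 0.0766, 0.118 and 0.0343 CPM in QKO. L1MdA_I_dup4359 had no read in WT and 1 in QKO mES cells. L1MdA_I_dup139 had at most 0.0654 CPM in WT mES cells and 0.422, 0.574, 0.471 and 0.926 CPM in QKO.

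Of 42 genes listed for LINE-1 silencing 41 were tested, and few were called in the mutants. Their part in the levels of the members was not tested. In TKO mES cells 2 were higher (2.68% of all genes), Dnmt3l, the cofactor of de novo DNA methylation, by 1.32 ± 0.10 on the log2 scale, and Piwil2, a PIWI protein, by 1.12 ± 0.09. 1 was lower (3.77%), Tdrd1, by -2.10 ± 0.36. In QKO mES cells 3 were higher (10.6%), with Dnmt3l at 2.28 ± 0.10, Piwil2 at 1.81 ± 0.08 and Zfp42 at 1.03 ± 0.13, and Mov10l1 was lower (6.66%) at -1.23 ± 0.16. In QKO EpiLCs 5 were higher (13%) and none lower (8.16%), among them Morc1 at 1.93 ± 0.06 and Tex19.1 at 1.5 ± 0.14. In TKO EpiLCs edgeR called none of the 41 genes higher (1.44% of all genes) or lower (1.48%). Those counts of 0, and that of lower genes in QKO EpiLCs, were also 0 at an unadjusted p under 0.05 with a fold over 2. The median log2 change of the list was 0.02, -0.05, 0.00 and -0.06 in TKO mES, QKO mES, TKO EpiLC and QKO EpiLC. In LBRKO mES cells Dnmt3l was higher by 2.88 ± 0.10 (1 of the 41 genes, 3.06% of all genes), and Dnmt3c and Mael were lower (3.25%), by -4.21 ± 1.35 and -1.01 ± 0.18. In LBRKO EpiLCs 3 of the 41 genes were higher (3.04% of all genes). There 0 were lower (2.63%), also at an unadjusted p under 0.05 with a fold over 2.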

How the data were processed

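Total RNA of 40 wells (8 groups) was made into stranded, rRNA-depleted libraries by the authors, who trimmed reads (cutadapt 2.5), aligned them to GRCm39 with STAR 2.7.10a keeping reads with a single alignment, and counted them with featureCounts 1.6.4 (versions per the submitters' processing notes). The deposited values are raw counts per gene and per single TE copy, with a table of multimapped counts per TE family by TEcount. The strand setting is not given in the sources used here. Unique counting leaves out reads that fit several copies, so levels of near-identical copies can be too low. Reads of a gene cannot be told apart from those of a member inside it, so levels can also be too high.

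CPM were computed from gene-table totals scaled by TMM (trimmed mean of M values). edgeR 4.0.16 (R 4.3.3) was fitted to all 40 libraries and the 131824 TE copies that passed filterByExpr, with 1 mean per group. Calls needed an adjusted p under 0.05 and a fold over 2. Gene spans ran from the lowest start to the highest end that the deposited gene table lists for each gene. Members were placed on the reference copy with blastn 2.17.0+. The script was tested on simulated data. The 95% intervals are exact and cover counting error only. Folds set by a floor of 3 reads have no interval and leave out counting error in the higher group.

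The members, gene lists and rules were chosen with earlier results of these data known. Named copies were the 6 (3 in the smaller comparisons) with the highest fold among called members that did not overlap and had at least 0.5 CPM, the 4 with the highest WT level, the 3 highest in QKO mES cells inside and outside genes, the 3 shortest called, those with a called difference between stages, and 2 on each side of the length threshold. The replicate numbers were checked for pairing. Correlations of same-numbered libraries ran from -0.43 to 0.58 and differed by comparison. In QKO against TKO EpiLCs they ran from 0.03 to 0.47, and 4 of 4 pairs matched best by their own number. Between WT stages this held for 4 of 8 pairs, and in LBRKO against WT mES cells for 0 of 4. The main design has no block, and a block is given as an alternative. The alternatives were other scalings, filters, folds, WT subsets, DESeq2 1.42.0, a replicate block, leaving out chromosomes Y, 6 and 8, leaving out each library in turn (with the dispersion trend of all libraries), and sums without the 5 members with most reads or by expressed genes.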

Additional observations from a re-analysis of the deposited data

Results flagged for a closer look

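Over 196 sets of libraries of 1 group, 23 (11.7%) had a library set apart from the rest. A set with reads in 1 library alone is always flagged by the rule, so no share expected by chance is given. Many of the 23 rest on 1 or a few reads. The sum of truncated copies without the 5 heaviest was 23.4 CPM in WT mES replicate 7, with the others from 12.4 to 16. L1MdA_I_dup666 had 227 CPM in WT mES replicate 5, and L1MdA_I_dup51 had 9 CPM in TKO EpiLC replicate 1. L1MdA_I_dup52 had 1.98 CPM in QKO EpiLC replicate 1. L1MdA_I_dup1533 had 0.119 CPM in WT mES replicate 3, 0.913 in TKO mES replicate 4 and 0.734 in WT EpiLC replicate 4.

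Among the copies with promoter sequence, L1MdA_I_dup3400 had 0.327 CPM in WT mES replicate 4, L1MdA_I_dup101 had 0.279 in WT mES replicate 7, L1MdA_I_dup1066 had 0.447 in LBRKO EpiLC replicate 4, L1MdA_I_dup4504 had 0.549 in WT EpiLC replicate 2 and L1MdA_I_dup2155 had 0.136 in LBRKO EpiLC replicate 1. L1MdA_I_dup550 had 0.0362 CPM in WT mES replicate 1 and 0.0227 in LBRKO EpiLC replicate 1. L1MdA_I_dup3836 had 0.0362 in WT mES replicate 1 and 0.392 in TKO mES replicate 2. L1MdA_I_dup3585 had 0.0213 in LBRKO mES replicate 1.

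Among the other pieces, L1MdA_I_dup3158 had 0.308 CPM in WT EpiLC replicate 1, L1MdA_I_dup4228 had 0.558 in WT EpiLC replicate 4, L1MdA_I_dup885 had 0.0254 in WT mES replicate 7 and L1MdA_I_dup3399 had 0.0213 in LBRKO mES replicate 1. L1MdA_I_dup3226 had 0.0362 CPM in WT mES replicate 1 and 0.0433 in WT EpiLC replicate 7.

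The effect of a mutant differed between stages at 11 pairs of copy and mutant by edgeR's test of the difference. For TKO the log2 difference (EpiLC minus mES) was -3.63 for L1MdA_I_dup1066, -3.15 for L1MdA_I_dup3159, -2.84 for L1MdA_I_dup3158, -2.74 for L1MdA_I_dup4504 and -2.64 for L1MdA_I_dup4228. For QKO it was -3.67 for L1MdA_I_dup3836, -3.38 for L1MdA_I_dup885, -3.22 for L1MdA_I_dup3399, -2.51 for L1MdA_I_dup1066, -2.02 for L1MdA_I_dup3159 and -1.88 for L1MdA_I_dup4228. All 11 were negative, and WT levels enter each of them.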

How the results depend on the processing

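Counts of members called here cover both directions. With the settings of the report they were 2 in LBRKO mES, 48 in TKO mES, 51 in QKO mES, 1 in QKO against TKO mES, 1 in LBRKO EpiLC, 26 in TKO EpiLC, 56 in QKO EpiLC, 15 in QKO against TKO EpiLC, 18 in WT EpiLC against WT mES, and 5 and 6 for the TKO and QKO differences between stages. With no filter on low counts they were 142 in TKO mES (141 higher), 402 in QKO mES (399 higher), 3 in QKO against TKO mES, 4 in LBRKO EpiLC, 44 in TKO EpiLC (42 higher), 385 in QKO EpiLC (382 higher), 49 in QKO against TKO EpiLC and 90 between WT stages (73 higher and 17 lower). With at least 40 reads they were 82 in TKO mES (81 higher), 141 in QKO mES (139 higher), 2 in QKO against TKO mES, 5 in LBRKO EpiLC, 121 in QKO EpiLC (119 higher), 36 between WT stages (31 higher and 5 lower) and 2 for the QKO difference between stages. At a fold over 10 they were 0 in QKO against TKO at either stage and in LBRKO EpiLC, 6 in TKO EpiLC (5 higher), 22 in QKO EpiLC, 3 between WT stages, and 1 and 2 for the TKO and QKO differences between stages. Without chromosomes Y, 6 and 8, QKO against TKO mES had 0.

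Scaling by median of ratios, no TMM scaling, and DESeq2 each gave 2 in LBRKO EpiLC. TMM on TE copies gave 3 in QKO against TKO EpiLC. That scaling moved the median of all copies by -0.28 in TKO mES, -0.76 in QKO mES and -0.80 in QKO EpiLC. With WT replicates 1 to 4 alone, TKO EpiLC had 12 (11 higher), WT stages 10 and the QKO difference between stages 3. With WT replicates 5 to 8 alone, LBRKO mES had 1, LBRKO EpiLC 3, WT stages 7, and the TKO and QKO differences 2 and 0. The replicate block, for numbers whose correlations differed by comparison, gave 4 in LBRKO mES, 2 in LBRKO EpiLC and 15 in TKO EpiLC (14 higher). It moved no other count by over 1.5 times.

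Leaving out each library in turn gave 0 to 2 in LBRKO mES, 44 to 50 in TKO mES, 50 to 52 in QKO mES, 1 in QKO against TKO mES, 1 to 3 in LBRKO EpiLC (3 without WT mES replicate 3 or 7 or LBRKO EpiLC replicate 3, and 2 without WT mES replicate 1, 2 or 4, LBRKO mES replicate 2 or 3, TKO mES replicate 3, QKO mES replicate 2, WT EpiLC replicate 1, 4 or 6, or LBRKO EpiLC replicate 1 or 4), 15 to 26 in TKO EpiLC (15, of which 14 higher, without its replicate 3), 52 to 56 in QKO EpiLC, 10 to 18 in QKO against TKO EpiLC (10 without TKO EpiLC replicate 1 or QKO EpiLC replicate 4), 15 to 20 between WT stages, 5 to 7 for the TKO and 2 to 6 for the QKO difference between stages. The last had 2 without WT mES replicate 6, WT EpiLC replicate 4 or QKO EpiLC replicate 3, and 3 without WT mES replicate 2 or 5.

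The sums changed most with the heavy rows. Without the 5 members they were 15.5, 18.1, 62.2 and 86.9 CPM in WT, LBRKO, TKO and QKO mES cells and 24.2, 34.5, 43.2 and 96.1 in EpiLCs. With each library left out, sums over every member ranged over 120 to 161, 94.3 to 158, 198 to 246 and 195 to 247 CPM in mES cells, and over 116 to 128, 176 to 292, 106 to 152 and 198 to 247 in EpiLCs. The ratio inside gene spans went to 1.61 (TKO mES), 2.15 (QKO mES) and 2.21 (QKO EpiLC) with spans of expressed genes, and to 1.43, 1.51 and 2.02 with every member, an alternative added after the data were seen. Outside, every member gave 1.6, 1.54, 1.09 and 1.70 in TKO mES, QKO mES, TKO EpiLC and QKO EpiLC.

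For the named copies, 53 results under the alternatives gave 2644 values, of which 2575 kept their direction and side of the threshold, 65 fell short of it, 4 newly passed and 0 reversed. Causes of these changes were not tested. At this depth 1087 members had no read in any library, so that no change in them was detectable, and the part of unique mapping in this was not tested.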
